A study of Homo sapiens with 4 samples.

Results

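Untreated SUP-B15 cells were compared with untreated BV-173 cells, both human B lineage leukemia lines that carry the Philadelphia chromosome and express its BCR-ABL1 fusion kinase. The comparison used 2 of the 4 arrays of the study, chosen by their labels as the arrays of cells without drug. The other arrays held the same lines after 16 h with 10 μmol/l STI571 (imatinib), which blocks the ABL1 kinase. Each line and treatment was measured on 1 array, so no difference between the lines has a replicate or a test, and every value below describes these arrays only. Each line is a single established culture, and the labels name no separate cultures within a line. A difference between them is therefore also a difference between 2 separately derived cell lines, and the fusion is present in both.

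BCR-ABL1 is a constitutively active tyrosine kinase that signals through the RAS and ERK cascade, STAT5 and SRC family kinases. In B lymphoid cells it transforms precursors that are arrested at the stage of immunoglobulin gene rearrangement. Such precursors carry CD34 while young, rearrange their heavy chain genes with the RAG1 and RAG2 recombinase and terminal transferase (DNTT), and then display a pre-B cell receptor. That receptor joins the mu heavy chain (IGHM) to the surrogate light chains VPREB1 and IGLL1, and signals through CD79A, CD79B, SYK and BLNK. Lines taken from different leukemias can stand at different points on this path and differ in genes outside it.

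Signal intensities were read for 22277 probe sets, of which 19064 had 1 gene symbol, and these covered 11963 genes. A gene was compared if a probe set of it reached the median signal of its array on at least 1 of the 4 arrays, which 7916 genes did. Differences are given as SUP-B15 over BV-173 on the scale log2(signal + 24.5), where 24.5 is the 25th percentile of the deposited table. This scale understates the fold change of dim genes, and a signal under 24.5 was treated as having no established level. Without drug, the BV-173 array had a median signal of 95.5 and the SUP-B15 array one of 115, and log2 signals of these arrays correlated across probe sets with r = 0.899. B lineage identity was checked on 10 marker genes, 8 of which had a probe set with 1 symbol. Of these 8, SUP-B15 had 8 above the median signal of its array and BV-173 had 7, the exception being MME.

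The lines differed at least 4-fold in 554 of the 7916 genes. SUP-B15 was the higher line in 402 of them (5.08% of all genes compared) and BV-173 in 152 (1.92%), so 72.6% of these differences ran towards SUP-B15. At 2-fold, 1095 genes (13.8%) were higher in SUP-B15 and 807 (10.2%) in BV-173, and 57.6% ran towards SUP-B15. That split depended on scaling: with each array set to a common median, 41.3% of 2-fold and 60.3% of 4-fold differences ran towards SUP-B15, because that scaling moved the median of all genes by -0.25. At 16-fold the counts were 63 genes (0.796%) for SUP-B15 and 11 (0.139%) for BV-173. Among all 19064 probe sets with 1 symbol, 646 (3.39%) were at least 4-fold higher in SUP-B15 and 257 (1.35%) in BV-173.

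**Figure D1:**
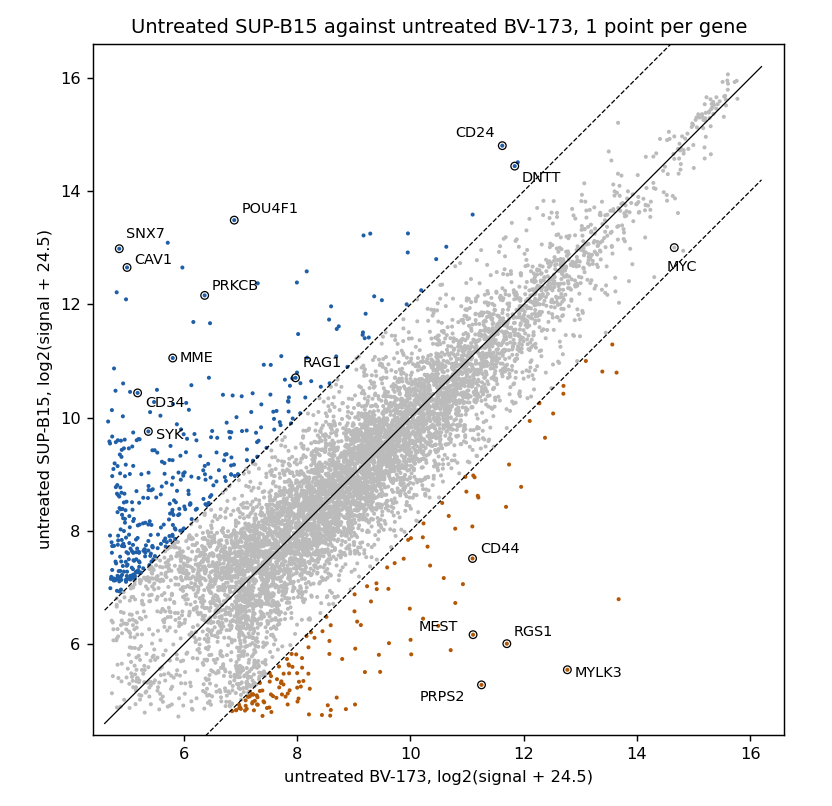
Signal of 7905 genes on the 2 untreated arrays, on log2(signal + 24.5) axes with 1 point per gene, coloured where the lines differed at least 4-fold. Genes higher in SUP-B15 include a group near the floor of the BV-173 axis, among them SNX7 and CAV1, and MYLK3 lies furthest towards BV-173 (149-fold).

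Most large differences set a bright signal in one line against a dim one in the other. Of the 402 genes higher in SUP-B15, 280 passed the brightness filter on SUP-B15 arrays alone and 216 had a signal under 24.5 in untreated BV-173. Of the 152 higher in BV-173, 104 passed on BV-173 arrays alone and 79 had a signal under 24.5 in untreated SUP-B15. Such genes could enter the comparison only by differing, so their number is not support for a difference between the lines. With no brightness filter, 1710 of 11963 genes (14.3%) were at least 2-fold higher in SUP-B15 and 1244 (10.4%) in BV-173.

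The treated arrays share no array with the untreated pair but are not replicates of it, and they entered the brightness filter. A gene that passed on arrays of 1 line alone had to be below the median on the treated array of the other line, so its direction there was not free. On these arrays 363 of the 402 genes were again higher in SUP-B15, 315 of them (78.4%) at least 2-fold, and of the 152 genes 128 were again higher in BV-173, 104 (68.4%) at least 2-fold. Among the 121 of the 402 that passed the filter in both lines, 103 kept the direction and 87 (71.9%) were at least 2-fold apart, and among the 48 of the 152 that did so these counts were 43 and 35 (72.9%). The treated arrays over all genes had 13.1% at least 2-fold higher in SUP-B15 and 14% in BV-173, and at 4-fold 4.41% and 2.84%, but all genes were not selected in that way. Another probe set past the filter gave the same direction in 110 of 113 cases among the 402 and in 32 of 33 among the 152. Those probe sets were read on the same arrays and had to pass the same filter, so their direction was not free either. Among genes that passed in both lines these counts were 46 of 46 and 18 of 19. For differences between 2-fold and 4-fold, 41.4% of 693 genes for SUP-B15 and 49.8% of 655 for BV-173 were at least 2-fold apart in the same direction on the treated arrays. Across all genes the untreated and treated line differences correlated with r = 0.704 (n = 7916 genes, which are not independent), and probe sets of 1 gene differed with an SD of 0.58 (log2).

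The genes furthest higher in SUP-B15 were bright there and dim in BV-173. SNX7, a sorting nexin of endosomes, read 4.5 in BV-173 against 8079 in SUP-B15 without drug and 2.5 against 7562 with it (signal intensity), a 279-fold difference between the untreated arrays. CAV1, the coat protein of caveolae, read 7.4 and 6418 untreated and 3.5 and 7540 treated in BV-173 and SUP-B15, 202-fold apart without drug. EFEMP1, a matrix protein of the fibulin family, read 28.0 and 8693 untreated and 4.7 and 13888 treated (166-fold). In each case both SUP-B15 arrays were bright and both BV-173 arrays were near or below the 25th percentile of the table.

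GPM6B, a tetraspan glycoprotein best known from neurons, read 3.6 in BV-173 against 4728 in SUP-B15 without drug and 34.0 against 4219 with it (169-fold untreated). PECAM1 (CD31), an adhesion receptor of endothelium and leukocytes, had 7.0 and 4336 untreated and 13.6 and 3076 treated (138-fold). Other probe sets of these genes gave the same direction, with log2 differences of 6.56 for CAV1, 6.48 for EFEMP1, 5.82 for GPM6B and 6.04 for PECAM1.

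POU4F1 and SHOX2, both homeobox genes, were among the 20 furthest higher in SUP-B15. POU4F1, a POU homeodomain factor of sensory neurons, read 94.0 in BV-173 against 11473 in SUP-B15 untreated and 38.9 against 6586 treated (97.0-fold untreated, with 7.75 on the log2 scale for another probe set). SLIT2, a secreted axon guidance ligand, read 38.3 in BV-173 against 6412 in SUP-B15 (102-fold), and SHOX2 5.8 against 1017 (34.4-fold, with 3.66 and 2.55 on the log2 scale for other probe sets). COCH, which encodes the secreted protein cochlin, was 68.8-fold higher in SUP-B15, and the basement membrane protein NID2 was 51.2-fold higher. All 5 were again at least 4-fold higher in SUP-B15 on the treated arrays. The coagulation inhibitor TFPI and the G protein subunit GNG11 also stood 38.6-fold and 51.4-fold higher in SUP-B15, with smaller differences of 8.98-fold and 9.80-fold on the treated arrays.

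**Figure D2:**
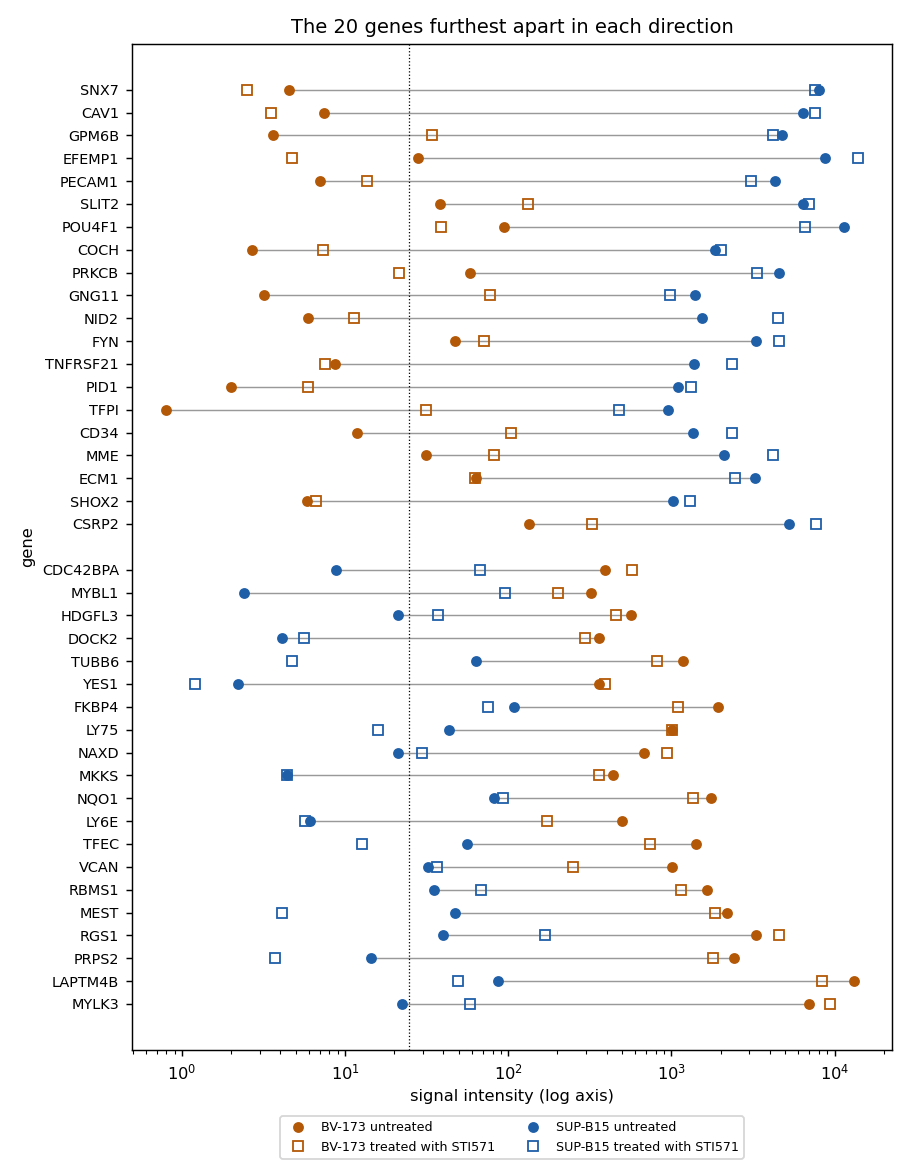
Signal on each of the 4 arrays, on a log axis, for the 20 genes furthest higher in untreated SUP-B15 and the 20 furthest higher in untreated BV-173, with 1 point per array. For SNX7 the SUP-B15 points lie at 8079 and 7562 and the BV-173 points at 4.5 and 2.5, while for MYBL1 the gap between the lines shrank from 12.9-fold untreated to 1.89-fold treated.

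In the other direction, MYLK3, a myosin light chain kinase best known from heart muscle, led the genes higher in BV-173. Its untreated signals were 6968 (BV-173) and 22.3 (SUP-B15) and its treated signals 9325 and 58.2, 149-fold apart without drug. LAPTM4B, a lysosomal membrane protein, read 13075 and 86.5 in BV-173 and SUP-B15 untreated and 8365 and 48.9 treated, a 118-fold difference that another probe set gave as -9.99 on the log2 scale. PRPS2, which makes phosphoribosyl pyrophosphate for nucleotide synthesis, read 2420 and 14.4 untreated and 1795 and 3.7 treated (62.8-fold). The BV-173 arrays were the bright ones for all 3 genes, and the lines did not overlap with or without drug.

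RGS1, a regulator of G protein signalling in B cells, was 51.7-fold higher in BV-173, with signals of 3308 against 39.9, and the imprinted gene MEST was 30.7-fold higher. Genes between 14.4-fold and 18.3-fold higher in BV-173 included VCAN (the proteoglycan versican), the transcription factor TFEC, the quinone reductase NQO1, the HSP90 co-chaperone FKBP4, the endocytic receptor LY75 and the SRC family kinase YES1. Each of these kept the direction on the treated arrays. VCAN narrowed most among those 6, from 18.3-fold to 4.49-fold. MYBL1, a MYB family transcription factor, fell from a 12.9-fold difference without drug to 1.89-fold on the treated arrays.

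Promoters of genes with large line differences held fewer CG dinucleotides than promoters of all genes compared. In the RefSeq table of GRCh38.p14, which spans 250 bases before to 50 bases after each gene start, 6549 of the 7916 genes had a promoter. A promoter was counted as CG-rich when its GC content was at least 50% and its CG count at least 0.6 of that expected from its C and G content (CG reads the same on both strands). By that count 80.1% of these promoters were CG-rich, against 46.9% of all 27305 promoters of the table. The share was 83.2% of 3710 promoters for genes under 1.5-fold apart, 65.9% of 317 for genes at least 4-fold higher in SUP-B15 and 60.5% of 114 for those at least 4-fold higher in BV-173. Both sets of strongly different genes thus included more CG-poor promoters, and median CG counts were 24 and 22 against 26 for all genes compared. The sets also differ in how they passed the filter. Of the 402 genes 280 passed on SUP-B15 arrays alone, and of the 152 genes 104 on BV-173 arrays alone. Over all 7916 genes these numbers were 703 and 829. Shares for genes that passed in both lines were not counted, so size of difference and expression in 1 line alone are not separated. These shares are descriptions without a test, and dinucleotide content says nothing of methylation in these cells.

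The promoters with the fewest and the most CG among the 20 genes furthest apart in each direction show the range, with each CG in capitals and all else in lower case. ECM1 (chr1:150507859-150508158, plus strand, 3 CG) and POU4F1 (chr13:78603503-78603802, minus strand, 47 CG) were higher in SUP-B15. TFEC (chr7:116030714-116031013, minus strand, 3 CG) and HDGFL3 (chr15:83207774-83208073, minus strand, 47 CG) were higher in BV-173. Each is written 5′ to 3′ on the strand of its gene.
ECM1: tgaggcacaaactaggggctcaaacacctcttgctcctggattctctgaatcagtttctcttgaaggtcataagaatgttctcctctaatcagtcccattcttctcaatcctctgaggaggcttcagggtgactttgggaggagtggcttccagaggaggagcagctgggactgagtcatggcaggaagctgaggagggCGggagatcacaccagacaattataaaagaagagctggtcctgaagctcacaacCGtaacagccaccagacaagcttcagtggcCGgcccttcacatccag
POU4F1: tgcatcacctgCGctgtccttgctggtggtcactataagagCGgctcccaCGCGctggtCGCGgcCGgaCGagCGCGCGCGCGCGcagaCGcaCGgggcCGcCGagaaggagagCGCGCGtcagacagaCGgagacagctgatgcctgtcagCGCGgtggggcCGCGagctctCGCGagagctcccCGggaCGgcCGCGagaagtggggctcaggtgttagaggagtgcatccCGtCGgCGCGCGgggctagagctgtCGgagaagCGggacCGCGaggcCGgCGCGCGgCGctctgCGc
TFEC: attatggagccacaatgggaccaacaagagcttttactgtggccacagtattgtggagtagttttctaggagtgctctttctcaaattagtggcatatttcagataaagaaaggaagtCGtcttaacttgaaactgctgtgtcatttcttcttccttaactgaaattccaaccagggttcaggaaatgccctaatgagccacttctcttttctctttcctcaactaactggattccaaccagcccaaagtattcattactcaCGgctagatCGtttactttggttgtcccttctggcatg
HDGFL3: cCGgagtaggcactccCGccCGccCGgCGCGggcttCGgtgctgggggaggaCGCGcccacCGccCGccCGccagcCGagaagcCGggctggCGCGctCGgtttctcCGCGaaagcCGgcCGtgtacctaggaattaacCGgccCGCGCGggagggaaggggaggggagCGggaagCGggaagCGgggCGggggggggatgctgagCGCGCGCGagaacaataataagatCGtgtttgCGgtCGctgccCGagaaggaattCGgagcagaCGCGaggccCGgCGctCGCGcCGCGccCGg
ECM1, which encodes extracellular matrix protein 1, was 36.9-fold higher in SUP-B15 with 3 CG in this window, and POU4F1 was 97.0-fold higher with 47. TFEC was 18-fold and HDGFL3 12.9-fold higher in BV-173, again with 3 and 47. Large differences therefore occurred at either end of the range of CG content.

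Surface antigens of the B lineage were mostly higher in SUP-B15. Of 18 on the array 13 passed the filter, and 9 were at least 2-fold higher in SUP-B15 and 0 in BV-173. The median log2 difference was 1.47 against 0.00 for all genes. With no filter, 10 of the 18 were at least 2-fold higher in SUP-B15 and 1, CD37, in BV-173. Of the 9, MS4A1 and CD70 were lower in SUP-B15 on the treated arrays (-0.32 and -0.54). In parentheses after a list median stand the lowest and highest median over the alternative scalings, pseudocounts, filters and probe set rules, which for these antigens ran from 0.36, with gene-specific probe sets alone, to 2.39. MME (CD10), the common leukemia antigen of pre-B cells, read 31.3 on the untreated BV-173 array and 2102 on that of SUP-B15, and 81.4 and 4178 on the treated arrays (38.1-fold untreated). CD24, a glycosylated surface antigen of B precursors, read 3128 and 28583 untreated and 16202 and 33140 treated, so that the 9.07-fold difference without drug was 2.04-fold with it. Signals of CD38, an ectoenzyme of precursors and plasma cells, were 6.4 and 380 untreated (13.1-fold), and those of CD72, a coreceptor of B cells, 48.3 and 814 (11.5-fold). CD99 was 5.22-fold and the tetraspanin CD9 2.76-fold higher in SUP-B15. CD22, an inhibitory receptor, went the other way at -0.45.

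Progenitor genes showed a like pattern. Of 22 progenitor antigens and regulators 15 passed the filter, 7 at least 2-fold higher in SUP-B15 and 1 in BV-173, with a median of 0.96 (-0.32, with gene-specific probe sets alone, to 1.34). CD34, the sialomucin of stem and progenitor cells, read 11.8 in BV-173 and 1363 in SUP-B15 untreated and 103.9 and 2341 treated (38.2-fold untreated). THY1 (CD90) was 21.5-fold, PROM1 (CD133) 7.93-fold and ID2, an inhibitor of E proteins, 6.97-fold higher in SUP-B15. CD44, the hyaluronan receptor, was the 1 gene of this list at least 2-fold higher in BV-173, with signals of 2166 and 158 untreated and 1494 and 72.4 treated, and 6 probe sets of it passed the filter. The receptor kinase FLT3 differed by -0.33 and KIT did not pass the filter. These being bulk RNA samples of cultures, fewer cells of a kind and less RNA per cell cannot be told apart.

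The recombination machinery was higher in SUP-B15 for the lymphoid-specific genes and near equal for most general repair factors. RAG1 read 226 in BV-173 and 1644 in SUP-B15 untreated and 904 and 4440 treated, 6.65-fold apart without drug. Signals of DNTT, which adds untemplated bases at junctions, were 3646 and 22251 untreated and 11815 and 29317 treated (6.07-fold). RAG2 differed 1.99-fold. Both lines had higher RAG1 and DNTT signals with drug than without it, and SUP-B15 stayed the higher line. Of the 9 genes on the V(D)J list, 2 were at least 2-fold higher in SUP-B15 and 1, PRKDC, in BV-173. PRKDC, the catalytic subunit of DNA-dependent protein kinase, was 4.28-fold higher in BV-173 (8744 against 2026), and another probe set gave -1.83. The list's median was 0.21 (-0.05, with a common median, to 0.73).

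Components of the pre-B cell receptor differed unevenly. Of 16 genes on that list 5 were at least 2-fold higher in SUP-B15 and 1 in BV-173, with a median of 0.75 (0.18, with gene-specific probe sets alone, to 0.80). PRKCB, a protein kinase C that links antigen receptors to NF-kB, read 58.0 in BV-173 and 4552 in SUP-B15 untreated and 21.5 and 3366 treated (55.5-fold, with 6.46 for another probe set). SYK, the kinase recruited by CD79A and CD79B, read 16.9 and 841 untreated and 19.1 and 1095 treated (20.9-fold, with 3.18 for another probe set). VPREB1 was 7.30-fold and the adaptor BLNK 5.61-fold higher in SUP-B15, while CD79B was 2.40-fold, IGLL1 1.99-fold and CD79A 1.80-fold higher. The kinases BTK and LYN differed by 0.14 and -0.82. BANK1, a scaffold of B cell receptor signalling, was the gene past 2-fold towards BV-173, with signals of 2328 and 361 untreated and 2179 and 35.6 treated, so the difference widened from 6.10-fold to 36.7-fold.

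Immunoglobulin genes gave differences in both directions, and probe sets of the heavy chain genes disagreed. The brightest probe set of IGHM was 3.14-fold higher in SUP-B15 and another gave 2.59 (log2), but the other 2 gave -1.46 and -1.25. IGHD was 2.99-fold higher in SUP-B15 by its brightest probe set, with -0.75, -0.27 and 3.58 for the others, so neither gene has a settled direction. The light chain gene IGLC1 was 2.26-fold higher in BV-173, where its signal was 4009 against 1761, and another probe set gave -2.19. JCHAIN, which joins secreted immunoglobulin polymers, read 28862 in BV-173 and 7878 in SUP-B15 untreated and 21819 and 1996 treated (3.66-fold untreated). Over the 10 immunoglobulin genes, 3 were at least 2-fold higher in SUP-B15 and 4 in BV-173, and the median of 0.10 changed sign between alternatives (-1.06 to 0.48, and -0.10 with a common median). Immunoglobulin probe sets can share sequence between family members, so single members are uncertain.

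Transcription factors of the B lineage were on balance higher in SUP-B15. Of 21 that passed the filter, 11 were at least 2-fold higher in SUP-B15 and 2 in BV-173, with a median of 1.02 (0.40, with gene-specific probe sets alone, to 1.09) untreated and 0.65 on the treated arrays. IRF8, a factor of B and myeloid development, was 10.3-fold higher in SUP-B15 (105 against 1307), and BACH2, a repressor active in pre-B cells, 6.34-fold (114 against 851). IKZF1 (Ikaros) was 3.99-fold higher, with 0.90 to 2.68 (log2) for its other probe sets, and MYB 3.27-fold, with 0.26 for another. The B lineage commitment factor PAX5 differed by 0.40, the E protein gene TCF3 by -0.11 and BCL6 by 0.35. BCL6 and MYB had higher signals on both treated arrays than on the untreated array of the same line, and the BCL6 difference between the lines turned to -1.06 there.

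Kinases of the SRC family differed between the lines in opposite directions. FYN read 47.3 in BV-173 and 3280 in SUP-B15 untreated and 71.4 and 4544 treated (46.0-fold), and another probe set gave 5.05. YES1 read 359 and 2.2 untreated and 394 and 1.2 treated, 14.4-fold higher in BV-173. LCK, best known from T cells, was 8.45-fold higher in SUP-B15 (21.1 against 361). Each line thus had a bright SRC family member that was dim in the other. ABL1 and BCR, the parents of the fusion, differed by 0.89 and 0.97 in the direction of SUP-B15. The array was not shown to separate fusion from normal transcripts. Of 27 SRC, ABL and adaptor genes past the filter 5 were at least 2-fold higher in SUP-B15 and 3 in BV-173, and the median of 0.54 (-0.14, with gene-specific probe sets alone, to 0.68) was -0.02 on the treated arrays.

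Targets of STAT5 leaned towards BV-173 in most settings, and a joint list of ERK feedback and immediate early genes leaned towards SUP-B15. Of 17 STAT5 targets, 4 were at least 2-fold higher in BV-173 and 1 in SUP-B15, with a median of -0.41 (-0.68 to 0.20, the latter with a filter at the 75th percentile). CCND2, a D-type cyclin, read 1747 in BV-173 and 239 in SUP-B15 untreated and 669 and 88.4 treated (6.73-fold), and the other 2 probe sets gave -2.40 and -0.39. CISH, a feedback inhibitor of cytokine receptors, read 918 and 158 untreated but 128 and 112 treated, so its 5.17-fold difference was 1.12-fold with drug. The survival kinase genes PIM1 and PIM2 were 3.66-fold and 2.28-fold higher in BV-173. CCND3, another D-type cyclin, went the other way at 3.92-fold higher in SUP-B15, with 4335 against 1088. SOCS2 was bright in both lines and differed by -0.41.

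Among 17 genes of ERK feedback and the immediate early response, 6 were at least 2-fold higher in SUP-B15 and 2 in BV-173, with a median of 0.67 (0.44 to 0.90). The phosphatase gene DUSP1 was 4.64-fold higher in SUP-B15 without drug and 1.45-fold with it. IL1B was 6.88-fold higher, with 216 in BV-173 and 1634 in SUP-B15. SPRY4, a Sprouty inhibitor of RAS signalling, was 6.14-fold higher in BV-173 untreated, with 188 against 10.1, and 0.84 (log2) higher in SUP-B15 on the treated arrays. For EGR1 the brightest probe set went from 2.11 to -0.83, while the other gave 0.87 and 1.55, so no change of direction was settled. Protein tyrosine phosphatases were higher in SUP-B15 in 7 of 21 genes and in BV-173 in 0, at 2-fold (13.8% and 10.2% over all genes). PTPRF was 15.6-fold, PTPN14 9.84-fold and PTPN12 7.30-fold higher in SUP-B15, with a list median of 0.67 (0.44 to 0.72). On the treated arrays these differences were 8.16-fold, 1.97-fold and 5.15-fold. PTPRF and PTPN14 read 8.5 and 5.9 in untreated BV-173, under 24.5.

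Cytokine receptors differed gene by gene. IL7R, the receptor chain that drives pre-B cell growth, was 2.90-fold higher in SUP-B15 (1406 against 4130). The growth hormone receptor GHR was 9.82-fold and the shared receptor chain IL6ST 4.18-fold higher in SUP-B15 (0.50 to 2.76 on the log2 scale for other probe sets of IL6ST). CSF2RB, the common beta chain of the IL-3 and GM-CSF receptors, was 6.2-fold higher in BV-173 (757 against 102), and IL15RA was 5.85-fold higher there. Of the 25 receptors and Janus kinases compared 5 were at least 2-fold higher in SUP-B15 and 3 in BV-173, near the shares over all genes.

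Adhesion and matrix genes included several of the genes furthest higher in SUP-B15. Of 21 matrix and caveolar genes past the filter 8 were at least 4-fold higher in SUP-B15 and 2 in BV-173 at that threshold. The list's median was 0.22 and depended on the setting, from near 0 with a common median to 1.52 with gene-specific probe sets alone and 2.02 with a filter at the 75th percentile. COL6A3, a collagen VI chain, read 19.9 in BV-173 and 1216 in SUP-B15 untreated and 38.1 and 1458 treated (27.9-fold), and the actin-binding protein CALD1 was 13.1-fold higher in SUP-B15. Of 44 genes of this list on the array, 23 did not pass the filter. Integrins and adhesion receptors were at least 2-fold higher in SUP-B15 for 8 of 22 and in BV-173 for 3, with a median of 0.39 (0.17 to 0.46). The shares over all genes were 13.8% and 10.2%. On the treated arrays 4 were at least 2-fold higher in SUP-B15 and 6 in BV-173, with a median of 0.07. MCAM (CD146) was 8.95-fold higher in SUP-B15 and ICAM3 3.79-fold higher in BV-173. On the treated arrays these differences were 1.60-fold and 7.58-fold in the same directions. The integrin gene ITGB7 read 36.0 and 290 untreated but 73.9 and 47.3 treated, so the direction of its 5.20-fold difference was not kept.

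**Figure D3:**
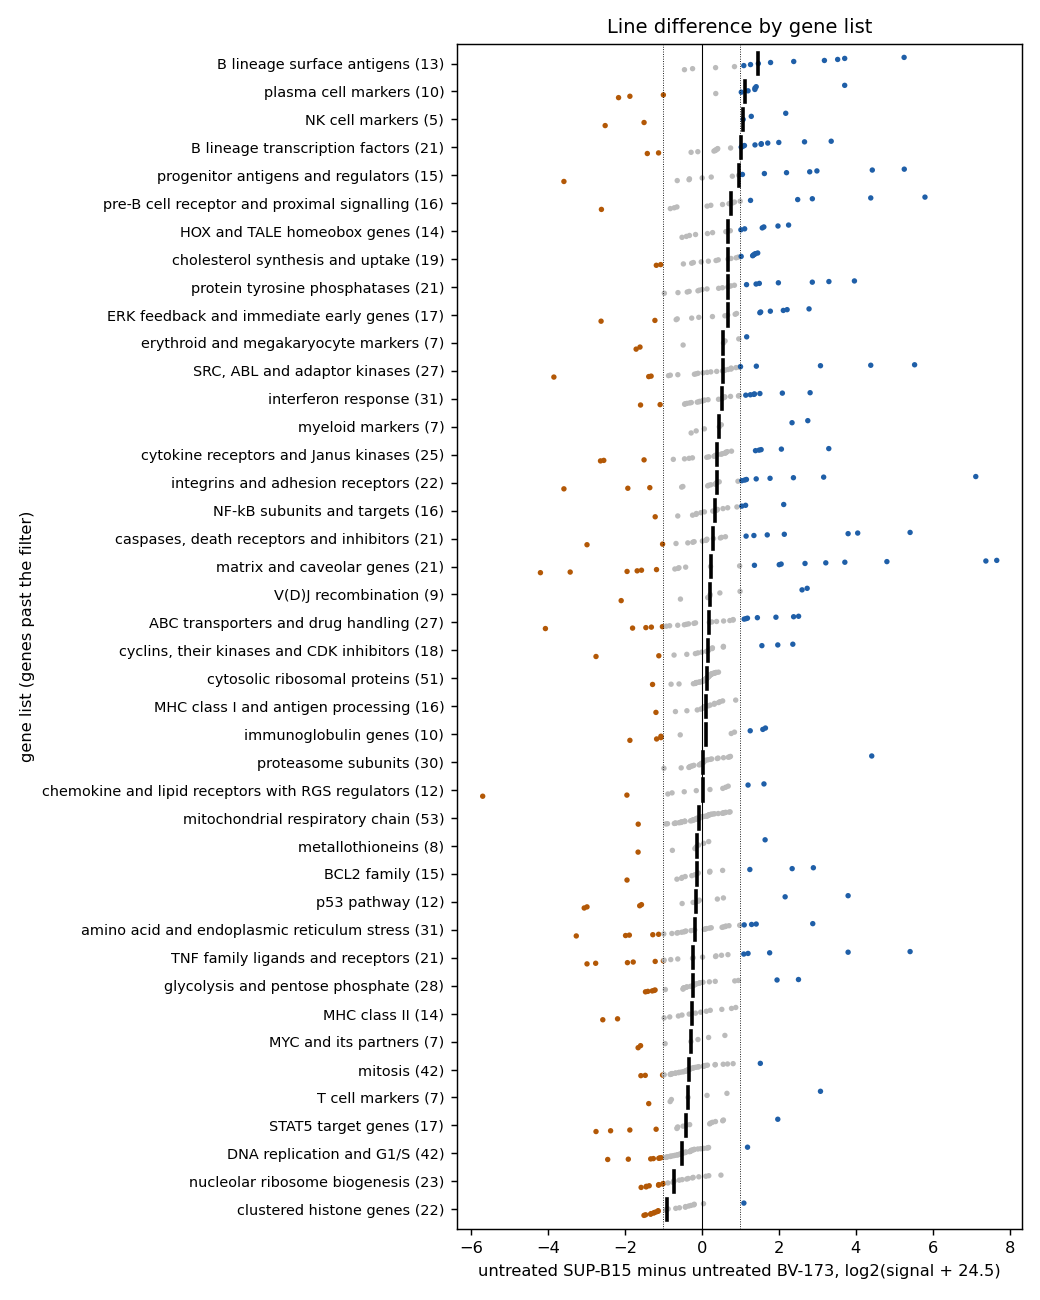
Log2 difference between untreated SUP-B15 and untreated BV-173 for each gene past the filter on the gene lists, with 1 point per gene and a bar at the list's median. B lineage surface antigens had a median of 1.47 and clustered histone genes one of -0.90, while the mitochondrial respiratory chain sat at -0.07.

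MYC and genes of ribosome assembly were higher in BV-173. MYC, a driver of growth and ribosome synthesis, read 25862 in BV-173 and 8187 in SUP-B15 untreated and 26045 and 2805 treated, so its difference was 3.15-fold without drug and 9.21-fold with it. Of the 23 nucleolar ribosome biogenesis genes, 8 were at least 2-fold higher in BV-173 and 0 in SUP-B15, with a median of -0.73 (-0.99 to -0.67) untreated and -0.75 treated. FBL, the methyltransferase of ribosomal RNA, was 2.73-fold higher in BV-173 (14839 against 5420), and RRP1B, RRP9 and RRP12 were between 2.58-fold and 2.99-fold higher, with -0.31 (log2) for another probe set of RRP12. The 51 cytosolic ribosomal protein genes showed a median of 0.13 with 1 member, RPLP2, past 2-fold towards BV-173. The sign of that median turned with a common median (-0.14), with quantile normalization (-0.01) and on the treated arrays.

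Replication genes leaned the same way. Of 42 genes for replication and S phase entry 7 were at least 2-fold higher in BV-173 (10.2% over all genes). In SUP-B15 1, POLE, was (13.8% over all genes). The list's median was -0.51 (-0.78 to -0.44) untreated and -0.19 treated. MCM4, a subunit of the replicative helicase, was 5.45-fold higher in BV-173 (5850 against 1054), and the licensing factor CDT1 3.76-fold. Clustered histone genes, whose transcripts mostly lack a poly(A) tail, had 9 of 22 members at least 2-fold higher in BV-173 and 1 in SUP-B15, with a median of -0.90 (-1.16 to -0.56). Among them H2BC5 was 2.75-fold (with -0.38 on the log2 scale for another probe set) and H1-3 2.52-fold higher in BV-173. Mitosis genes showed a median of -0.34 untreated and a value near 0 on the treated arrays. Of 42, 3 were at least 2-fold higher in BV-173 and 1 in SUP-B15, both below the shares over all genes. PRC1, which bundles spindle microtubules, was 3.0-fold higher in BV-173, whereas ASPM was 2.86-fold higher in SUP-B15.

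Among metabolic genes, ASNS (asparagine synthetase), the enzyme whose activity counters asparaginase, read 3276 in BV-173 and 319 in SUP-B15 untreated and 2848 and 260 treated (9.60-fold). Both BV-173 arrays were above both SUP-B15 arrays, for a gene named by the size of its untreated difference. Among 31 genes of amino acid supply and endoplasmic reticulum stress, 5 were at least 2-fold higher in BV-173 and 4 in SUP-B15, with a median of -0.19 untreated and 0.47 on the treated arrays. The serine synthesis gene PHGDH was 3.69-fold higher in BV-173, and ATF5, a stress-responsive transcription factor, 7.36-fold higher in SUP-B15. Of 28 glycolysis and pentose phosphate genes 5 were at least 2-fold higher in BV-173, GPI and PFKM among them at 2.65-fold and 2.76-fold, and 2 in SUP-B15, with HK1 at 5.69-fold. Cholesterol synthesis and uptake genes had 6 of 19 at least 2-fold higher in SUP-B15 and 2 in BV-173, with a median of 0.68 (0.41 to 0.70) that was -0.08 on the treated arrays. HMGCS1 was 2.53-fold higher in SUP-B15.

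Several death receptors and effectors were far apart. Of 21 caspases, death receptors and inhibitors 7 were at least 2-fold higher in SUP-B15 and 2 in BV-173, and of 15 BCL2 family genes 3 and 1. The shares over all genes were 13.8% and 10.2%. Medians of these lists were 0.30 and -0.12 untreated and -0.07 and 0.02 on the treated arrays. GSDME, a pore-forming gasdermin cut by caspases, read 552 in BV-173 and 9508 in SUP-B15 untreated and 157 and 3357 treated (16.5-fold). TNFRSF21 (death receptor 6) was 42.4-fold (2.54 on the log2 scale for another probe set) and TNFRSF10B, a receptor of TRAIL, 13.9-fold higher in SUP-B15. FAS was 7.91-fold higher in BV-173 (236 against 8.4) and another probe set gave -2.85. BCL2 and MCL1 differed by -0.12 and 0.20, and BCL2L1 by -0.65 with 0.92 and 0.54 for other probe sets, so its direction was not settled. Within the BCL2 family the pro-death genes BIK and BNIP3L were 7.44-fold and 5.08-fold higher in SUP-B15 and BAK1 was 3.85-fold higher in BV-173. CDKN2A, a tumour suppressor gene of the cell cycle, had signals of 172.5 and 171.9 on the untreated arrays, and MDM2 was 4.47-fold higher in SUP-B15 by its brightest probe set, with 0.16 to 1.13 (log2) for the other 4.

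Antigen presentation genes of class I were close in both lines, while class II genes included larger differences towards BV-173. HLA-DRA differed by -0.52. Of 14 class II genes 2, HLA-DPA1 and HLA-DOB, were at least 4-fold higher in BV-173, against 1.92% of all genes. The other 12 were under 2-fold apart, and on the treated arrays 3 were at least 2-fold higher in BV-173. HLA-DOB read 131.6 in BV-173 and 9.7 in SUP-B15 untreated. HLA-DPA1, a class II chain, read 10704 in BV-173 and 1777 in SUP-B15, but another probe set gave -0.75 against -2.57 for the brightest. Of 16 class I and processing genes 1, ERAP1, passed 2-fold, and its direction changed when probe sets were averaged. Interferon response genes were at least 2-fold higher in SUP-B15 for 7 of 31 and in BV-173 for 2, with a median of 0.52 (0.03 to 0.54). The shares over all genes were 13.8% and 10.2%. On the treated arrays 5 were at least 2-fold higher in SUP-B15 and 3 in BV-173, with a median of 0.02. USP18, which dampens interferon signalling, was 7.01-fold higher in SUP-B15 without drug and 23-fold with it.

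Homeobox genes of the HOX and TALE families were at least 2-fold higher in SUP-B15 for 6 of the 14 past the filter and in BV-173 for 0, with a median of 0.68 (0.14, with gene-specific probe sets alone, to 1.01). The shares over all genes were 13.8% and 10.2%. On the treated arrays 4 were at least 2-fold higher in SUP-B15 and 2 in BV-173, with a median of 0.26. PBX3, a HOX cofactor, read 251 in BV-173 and 792 in SUP-B15 (2.96-fold). HOXB6 and HOXC6 were 3.93-fold and 4.76-fold higher, from signals under 24.5 in BV-173. Their untreated SUP-B15 signals of 113.2 and 113.6 were also under that array's median of 115. Another 13 of the 27 on the array did not pass the filter.

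Most markers of other blood cell types were below the median signal of their array in both lines. Of 25 myeloid markers, 4 were above it in BV-173 and 6 in SUP-B15. Signals of 8 were under 24.5 on both untreated arrays. The bright ones included CLEC11A, a growth factor of blood progenitors, at 2129 and 3028 in BV-173 and SUP-B15, and the transcription factor gene CEBPB at 1393 and 1458, which made up most of the list's summed signals of 4388 and 5760. MPO, the peroxidase of neutrophil granules, read 8.3 and 196, and the monocyte antigen CD14 read 3.8 and 9.1. Of the 7 myeloid markers past the filter 2 were at least 2-fold higher in SUP-B15 and 0 in BV-173. Of 19 T cell markers, 4 were above the median in BV-173, with ZAP70 at 362, and 2 in SUP-B15, with LCK at 361, and their signals summed to 1328 and 1267, while CD3D read 20.2 and 18.4. Of 16 erythroid and megakaryocyte markers 5 and 4 were above it, among them TFRC, the transferrin receptor of dividing cells, at 3219 and 6276. For 14 NK cell markers, 3 and 2 were above it, with sums of 889 and 894, KLRF1 at 356 in BV-173 and NKG7 at 392 in SUP-B15. In the plasma cell list 6 of 10 genes past the filter were at least 2-fold higher in SUP-B15 and 3 in BV-173, and XBP1 (2.66-fold higher in SUP-B15) and JCHAIN stood on opposite sides. The part of such markers in the differences above was not tested.

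Genes that lie next to each other in the genome differed together at several places. With genes placed in their RefSeq order (GRCh38.p14) and a running median over 15 neighbouring genes, window medians had an SD of 0.33 and a 1st to 99th percentile range of -0.88 to 0.89 over 7581 windows. The most extreme window towards BV-173 ran from PLPBP to GOLGA7 at -1.52, where 12 of 15 genes were higher in BV-173, and that from KAT6A to UBE2V2, separated from it by 1 gene, at -1.33 with 14 of 15. On the treated arrays the same windows had medians of -1.18 and -0.96. Windows, joined stretches and genes in this paragraph and in those below on genome order were picked for their size after the values were seen. Overlapping windows share genes.

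Joined, the stretch from PLPBP to UBE2V2 held 31 genes, of which 27 were higher in BV-173 and 22 at least 2-fold, with a median of -1.49. It includes MCM4 and PRKDC described above, the receptor kinase FGFR1, the NF-kB kinase IKBKB and the repair polymerase POLB. On the same chromosome the direction turned near PLPBP, though ERLIN2 just before it was already at -1.34. Of the 74 genes before PLPBP 57 were higher in SUP-B15 (median 0.67, treated 0.68), and of the 207 from it onwards 153 were higher in BV-173 (median -0.56, treated -0.60). MYC lies among the latter. The most extreme window towards SUP-B15, from BLK to LZTS1, was on the side before it, with a median of 1.43 and 13 of 15 genes higher in SUP-B15.

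On another chromosome the windows GNG10 to TMEM268 and ARPC5L to FPGS, picked for their size, were joined with the 20 genes between them. The stretch so made held 50 genes with a median of 0.78 (treated 1.08), 43 of them higher in SUP-B15 and 21 at least 2-fold. PBX3, the ribosomal protein gene RPL35 and the proteasome genes PSMB7 and PSMD5 lie in it, the last with signals of 5.3 (BV-173) and 610 (SUP-B15). Over the whole of that chromosome 200 of 290 genes were higher in SUP-B15, and its median of 0.44 was the highest of 23 chromosomes, the next being 0.10 and the lowest -0.39. The window from CBR4 to CENPU, also picked for its size, had a median of -1.14, with 12 of 15 genes higher in BV-173. DNA copy number was not measured here.

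**Figure D4:**
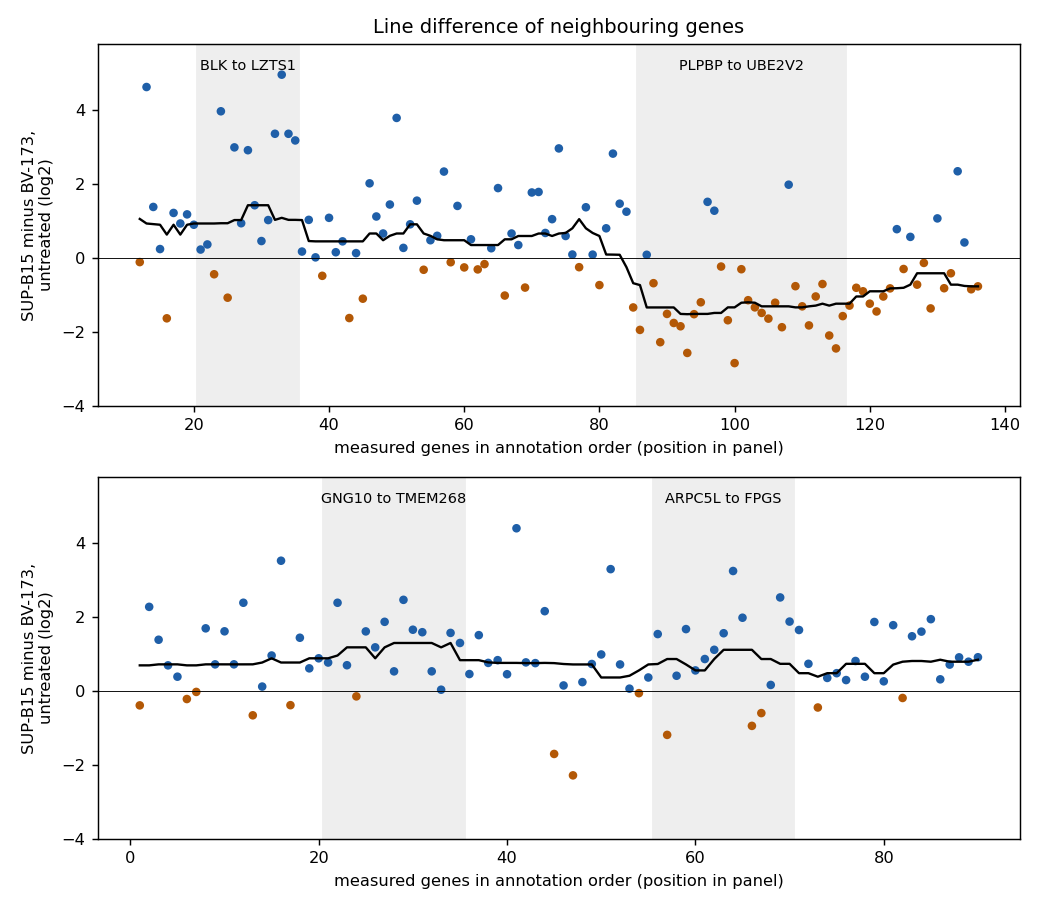
Log2 difference between untreated SUP-B15 and untreated BV-173 for genes in genome order along stretches of 2 chromosomes, with 1 point per gene, a line for the running median over 15 genes and shading over the stretches named. In the upper panel the line drops below 0 near PLPBP, and in the lower panel it stays above 0 from GNG10 to FPGS (median 0.78).

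Some large differences were not kept on the treated arrays. Of the 402 genes at least 4-fold higher in untreated SUP-B15, 39 were lower there than in BV-173 on the treated arrays, 18 of them at least 2-fold, and of the 152 higher in BV-173, 24 and 6 turned in that way. LTBR, the lymphotoxin beta receptor, read 252 in BV-173 and 16.3 in SUP-B15 untreated but 127 and 156 treated. CDKN1C, a CDK inhibitor, read 15.1 and 179 untreated but 22 and 20.2 treated. For these probe sets the untreated SUP-B15 array stood apart from the other 3. Another probe set of CDKN1C read 4.5 and 33.6 untreated and 113.8 and 29.2 treated, with the treated BV-173 array apart instead. The mean 18S ribosomal probe signal was 2817 on the treated BV-173 array and between 1513 and 1596 on the others, and its part in these values was not tested.

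**Figure D5:**
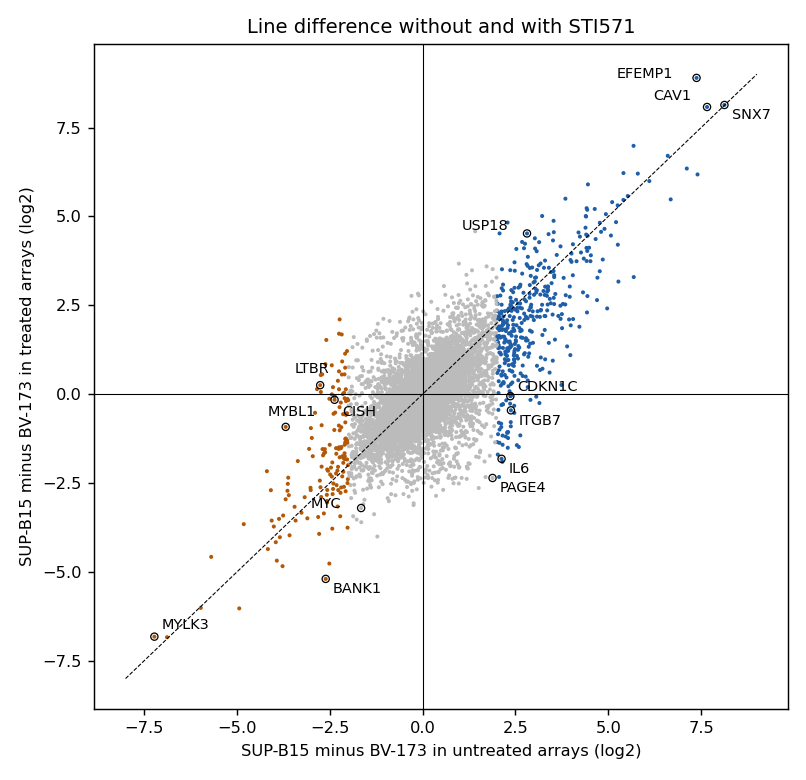
Line difference (SUP-B15 minus BV-173, log2) on the treated arrays against that on the untreated arrays, with 1 point per gene, a dashed line of equality and colours for genes at least 4-fold apart untreated. SNX7 lies on the line at 8.13 on both axes, while CISH (-2.37 and -0.16), LTBR and IL6 lie well above or below it.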

How the data were processed

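Total RNA of BV-173 and SUP-B15, untreated or given STI571, was hybridised to Affymetrix arrays, 1 per group. The authors deposited 1 linear signal intensity for each probe set, made with GCOS 1.3 per the submitters' processing notes. How probes were summarised and to what level arrays were scaled is not stated here. The 2%-trimmed mean signal was 499.8 in each deposited column, so the arrays had been scaled to one level. A bright minority of probe sets can therefore shift the rest.

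Of 22277 probe sets, 62 controls, 1043 with several symbols and 2108 with none were left out. The symbols are those of the platform annotation, and 19052 of 19064 matched RefSeq. Probe sets below the 50th percentile on all 4 arrays were dropped, and the brightest of those left stood for its gene. Signals were compared as log2(signal + 24.5) without further normalization, by size only, at 2-fold, 4-fold and 16-fold. The lines are compared by their labels.

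The comparison, the 43 gene lists (1191 genes, 1021 on the array, 789 past the filter) and the rules were chosen with earlier results of these data known. Genes named are the 20 furthest apart each way, up to 5 per list by size, and 45 chosen genes of kinase signalling and B cell precursors. Some further genes, such as SOCS2, POLB and those that bound genome stretches, were named after their values were seen. Transcripts that reveal sex are counted but not named or plotted, and some genes are not analysed here. Alternatives were quantile normalization, a common median, other pseudocounts, other filters, other probe set rules and the treated arrays. Scripts were tested on simulated data and run in Python 3.11.15 with pandas 2.3.3 and numpy 2.4.6.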

Additional observations from a re-analysis of the deposited data

Results flagged for a closer look

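The line difference ran at least 2-fold one way on the untreated arrays and at least 2-fold the other way on the treated arrays for 7 of the 250 named genes. The change between them was not tested, since each group held 1 array. GP9, a platelet glycoprotein, went from 1.16 to -1.04, IL6 from 2.12 to -1.82 and the NK receptor gene KLRD1 from 1.07 to -1.44 (log2, SUP-B15 over BV-173). The cancer-testis genes MAGEC2 and PAGE4 went from 1.67 to -1.89 and from 1.88 to -2.36. IL2RB, a chain of the IL-2 receptor, went from -1.5 to 1.5, and RBL1, a relative of the retinoblastoma protein, from -1.12 to 1.12. Except for RBL1, whose signals lay between 69.9 and 255.5, each of these genes had a signal under 24.5 on at least 1 array.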

How the results depend on the processing

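No paired analysis was possible because each group held 1 array and the comparison came from no test. Of the counts given above (402 and 152 genes at 4-fold, 1095 and 807 at 2-fold, SUP-B15 and BV-173), those that moved by over 1.5 times were as follows. A pseudocount of 98 gave 174 and 52 at 4-fold and 727 and 461 at 2-fold, and a pseudocount of 1 gave 300 for BV-173 at 4-fold. A 75th percentile filter, which leaves fewer genes, gave 190 and 65, and 485 and 404, and no filter gave 1710 (14.3%) and 1244 (10.4%) at 2-fold. Gene-specific probe sets alone gave 257 for SUP-B15 at 4-fold and 703 and 524 at 2-fold. A common median gave 1228 for BV-173 at 2-fold. Among the 250 named genes, turns of direction were counted for those at least 2-fold apart. None of these turned under quantile normalization or a common median. Smaller differences were not counted and can turn, since a common median moved the median of all genes by -0.25. The averaging of probe sets turned ERAP1 to 0.30 and ICAM1 to -0.59, and gene-specific probe sets turned BIRC5 to 0.62 and IGHD to -0.27. The NK cell list, with few genes past the filter, went from 1.07 to -0.19 with no filter, -2.51 with the 75th percentile filter, -0.11 with a filter on the untreated arrays and -0.46 on the treated arrays, and the cancer-testis list from 1.67 to -0.11 with no filter and -1.89 treated. On the treated arrays 21 of the named genes at least 2-fold apart turned: CD83 -0.0032, CDKN1C -0.057, EGR1 -0.83, ERAP1 0.28, GP9 -1.04, HBE1 0.28, HOXD9 -0.63, IL2RB 1.5, IL6 -1.82, ITGB7 -0.45, KLRD1 -1.44, LTBR 0.25, MAGEC2 -1.89, MS4A1 -0.32, NKG7 -0.46, PAGE4 -2.36, RBL1 1.12, S1PR4 -0.029, SPRY4 0.84, TM7SF2 -0.39 and TNF 0.15. Named genes closer than 2-fold that turned there, such as BCL6 and BCL2L1, are not in this count. The cause was not tested. With 1 array per line and no detection calls, differences of dim genes have no error estimate.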
